A study of Mus musculus with 8 samples.

Results

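Loss of transglutaminase 2 was examined in ethanol-exposed hepatocytes by comparing the 2 arrays of knockout cells (KO) with the 2 arrays of wild-type cells (WT) that carried the ethanol label, 4 of the 8 arrays of the study. They were chosen by sample title, and no measured value entered the choice. The cells were primary mouse hepatocytes, in which most liver metabolism takes place, taken into culture from WT or TG2KO mice of C57BL6/129SVJ background. Both groups were labelled as exposed to 100 mM ethanol for 15 h, and the other 4 arrays held the same genotypes at 0 mM, again 2 arrays (A and B) per group. Of the ethanol arrays, the B array of each genotype carries a treatment text that describes a control incubation, while its title and source both state 100 mM, and it was grouped by title. The labels state no ages, no deleted part of the gene and no separate animals or cultures for A and B, so p-values measure only the spread between arrays, which may be technical.

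Transglutaminase 2, the product of Tgm2, joins proteins by a calcium-dependent bond between glutamine and lysine side chains, and it is abundant in liver. The study's title concerns its crosslinking of Sp1, a transcription factor that binds GC boxes, in liver injury. NF-kB is a family of transcription factors held in the cytoplasm by inhibitor proteins, and its targets include chemokines, cytokines, adhesion molecules and those inhibitors themselves. Hepatocytes also run bile acid formation, lipoprotein assembly, drug conjugation and the metabolism of sulfur amino acids, and ethanol is oxidised in the same cells.

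The 4 arrays differed in technical measures that follow genotype or the letter. Trimmed mean brightness was 214 and 284 in WT and 103 and 297 in KO, and the SD of A minus B on the log2 scale was 0.322 in WT and 0.503 in KO. KO A stood apart from the other 7 arrays on the second principal component (-63.5, against -8.24 for KO B). KO B, whose treatment text describes a control incubation, correlated at 0.971 with KO A and at 0.9772 and 0.9766 with untreated KO A and B. WT B, with the same conflict, correlated at 0.9824 with WT A and at 0.9776 and 0.982 with untreated WT A and B. The 3′ to 5′ signal ratio of the control transcript Pcx was 26.7 and 44.5 in WT and 4.91 and 5.45 in KO, and that of Actb 1.62 and 1.48 in WT and 1.23 and 1.15 in KO. Their part in the results was not tested. On WT B, 12% of values were unusable, and probe sets with such a value were left out. Both groups expressed hepatocyte genes: the summed intensity of 17 tested identity markers was 163100 and 162600 in WT and 154600 and 156900 in KO. In such bulk samples fewer cells of a type and less RNA per cell cannot be told apart. Intensities below are quantile normalised. Differences are KO minus WT on the log2(intensity + 16) scale with the model's standard error, and they understate the change of dim genes. All values rest on n = 2 arrays per group.

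A gene was called at a limma adjusted p under 0.05 with the same sign in the A pair and the B pair. It was termed firm if it was also called with each of the 4 ethanol arrays left out in turn. Of 10741 genes tested, 1328 (12.4%) were called higher and 1883 (17.5%) lower in KO, and the sign rule removed 0 of them. Firm calls numbered 649 higher (6.04%) and 765 lower (7.12%). A difference of at least 2-fold was called for 293 genes higher and 341 lower, of which 243 and 212 were firm. The median difference over all genes tested was -0.08. The balance of directions depended on the handling of incomplete probe sets: with those missing on 1 array kept, 1466 genes were higher and 1119 lower. The total fell from 3211 to 1767 without WT B and to 1871 without WT A. It was 3063 without KO A, the array that stood apart, and 4097 without KO B. Single genes said below to be higher or lower are firm unless stated otherwise. Among them Ghr, Klf3, Stard4, Sc5d, Cxcl12, Nfkb2, Slc10a1, Akr1d1, Plin5, Slc7a11, Slc40a1, Rrm2, Gadd45b, Ighm and Vcam1 had at least 1 further tested probe set that was not called.

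**Figure D1:**
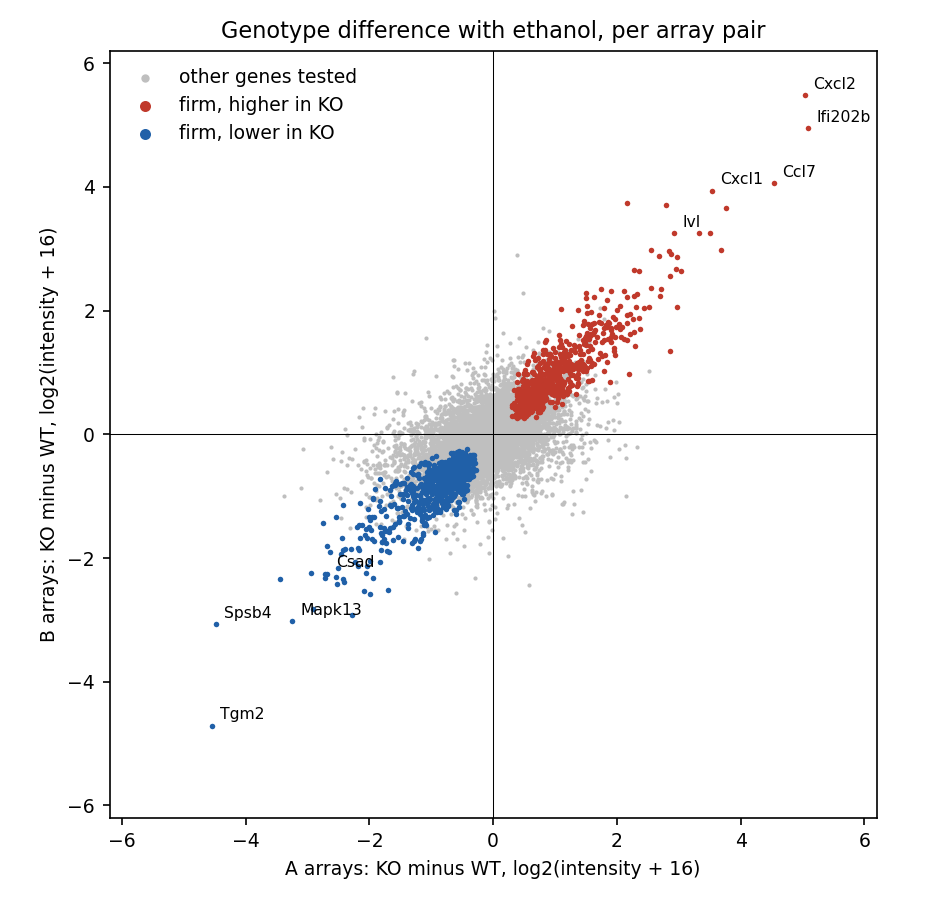
KO minus WT on the A arrays (horizontal) and on the B arrays (vertical) with ethanol, both as log2(intensity + 16), for 10741 genes, 1 point per gene. Red points are the 649 firm genes higher in KO and blue points the 765 firm genes lower, and the A and B pairs correlated at 0.67 across genes, which are not independent replicates.

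Tgm2 itself was measured first, as the targeted gene. Its brightest probe set read 16840 and 16840 in WT and 704 and 628 in KO. The KO values lay far below both WT values, with a difference of -4.63 ± 0.073 (limma adjusted p = 2e-09). All 6 tested Tgm2 probe sets were lower in KO. The third brightest had the largest difference (11900 and 11320 against 112 and 198, -6.13 ± 0.188), and the dimmest the smallest (-2.63 ± 0.424, from 220 and 79.5 to 12.6 and 4.68). Of 8 tested transglutaminases and envelope substrates, 2 were firmly higher, against 6.04% of all genes. Tgm1, the transglutaminase of stratified epithelia, read 375 and 421 in WT and 1216 and 1392 in KO (1.67 ± 0.104, adjusted p = 5.8e-06). Ivl, which encodes involucrin, a substrate that transglutaminases fix into the skin barrier, read 128 and 115 in WT and 1080 and 1230 in KO (3.09 ± 0.1, adjusted p = 1.2e-07). Both KO arrays exceeded both WT arrays for each gene, and the groups did not overlap for 62.3% of all genes tested.

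The study's title names Sp1, and Met and Egfr are growth factor receptors of hepatocytes. Sp1 read 577 and 560 in WT and 591 and 716 in KO, a difference of 0.19 ± 0.11 that was not called (limma adjusted p = 0.23). Sp3, the close relative of Sp1, was higher (132 and 130 against 217 and 345, 0.98 ± 0.204, adjusted p = 0.0063). Of 16 Sp and Krüppel-like factors tested, 6 were called higher and 2 lower, against 12.4% and 17.5% of all genes. Sp3 and Klf3 were the firm increases and Klf13 the firm decrease (-0.87 ± 0.107). Met, the receptor of hepatocyte growth factor, was lower on its brightest probe set, with 1396 and 1468 in WT and 911 and 953 in KO (-0.61 ± 0.0823, adjusted p = 0.00061). Its other tested probe set went the opposite way (51.2 and 41.2 against 181 and 163, 1.60 ± 0.181, adjusted p = 0.00021), so the direction for Met depends on the probe set. Egfr, the epidermal growth factor receptor, was called higher but not firmly (1221 and 1032 against 1668 and 1322, 0.40 ± 0.129, adjusted p = 0.044). Of its 6 tested probe sets, 3 were called, all higher, and the largest difference was on a dimmer one (136 and 120 against 557 and 448, 1.84 ± 0.141, adjusted p = 2.1e-05). On the brightest, the call was lost in 7 of the 8 fits that left out 1 array, the exception being ethanol KO B. Among 29 growth factor receptors and ligands, Erbb3, a receptor of the epidermal growth factor family, fell from 445 and 428 in WT to 142 and 179 in KO (-1.37 ± 0.16), and taking the median of its probe sets ended that call (adjusted p = 0.51). Btc, an ErbB ligand, was higher by 1.20 ± 0.116 and the growth hormone receptor Ghr by 0.995 ± 0.0739.

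Promoter windows from RefSeq (GRCm38.p6) are shown for the chemokine and NF-kB genes of largest firm increase that had one. They run over the 250 bases before the start site, 5′ to 3′ on the gene's strand. The NF-kB consensus was searched by its degenerate pattern and the GC box as GGGCGG, both on either strand, with overlapping matches kept. Capitals mark every match. The windows are chr5:90903649-90903898 (plus) for Cxcl2, chr5:90890995-90891244 (plus) for Cxcl1, chr10:19015411-19015660 (minus) for Tnfaip3 and chr11:83649379-83649628 (minus) for Ccl3. Ccl7, Ccl2 and Nfkbiz are named only.
Cxcl2: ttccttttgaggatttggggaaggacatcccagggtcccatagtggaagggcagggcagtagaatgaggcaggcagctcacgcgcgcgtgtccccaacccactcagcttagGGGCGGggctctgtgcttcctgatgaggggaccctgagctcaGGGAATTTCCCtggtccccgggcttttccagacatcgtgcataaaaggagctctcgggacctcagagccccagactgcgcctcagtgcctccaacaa
Cxcl1: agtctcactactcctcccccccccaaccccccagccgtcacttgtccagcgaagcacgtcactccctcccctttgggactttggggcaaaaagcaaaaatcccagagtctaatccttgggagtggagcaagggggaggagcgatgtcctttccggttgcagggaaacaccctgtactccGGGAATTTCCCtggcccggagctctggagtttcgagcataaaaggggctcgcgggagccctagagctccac
Tnfaip3: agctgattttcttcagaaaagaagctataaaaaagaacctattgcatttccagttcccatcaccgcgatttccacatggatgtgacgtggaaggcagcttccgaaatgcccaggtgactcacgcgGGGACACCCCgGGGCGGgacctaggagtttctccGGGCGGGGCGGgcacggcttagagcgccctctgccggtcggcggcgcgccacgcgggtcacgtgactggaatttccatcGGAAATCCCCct
Ccl3: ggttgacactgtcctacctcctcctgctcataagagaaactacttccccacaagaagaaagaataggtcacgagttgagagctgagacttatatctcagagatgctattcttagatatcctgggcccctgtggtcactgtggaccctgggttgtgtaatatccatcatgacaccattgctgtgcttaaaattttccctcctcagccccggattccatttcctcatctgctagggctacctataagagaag

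In these letters, Cxcl2 and Cxcl1 share an identical symmetrical NF-kB stretch, which begins 97 bases before the Cxcl2 start and 71 bases before the Cxcl1 start and matches on both strands. Tnfaip3 has NF-kB matches that begin 125 and 12 bases before its start and GC boxes at 114, 91 and 86 bases. Cxcl2 has 1 GC box, at 139 bases, and Ccl3 has neither motif in this window. Of 8731 tested genes with a window, 10.6% held an NF-kB match and 63.3% a GC box. The shares were 14.9% and 64.6% for the 523 firm higher genes with a window and 8.98% and 63% for the 635 firm lower ones. Over all 32851 windows they were 7.25% and 32.7%. A match describes letters and not binding, and the shares were not tested.

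Cxcl2, a neutrophil attractant, had the largest firm increase. It read 157 and 154 in WT and 5645 and 7567 in KO, a 38.3-fold difference (5.26 ± 0.121, limma adjusted p = 1.7e-08). Cxcl1, which acts through the same receptor, read 579 and 562 in WT and 6907 and 8847 in KO (3.74 ± 0.11, adjusted p = 7.4e-08). For both genes the KO arrays lay an order of magnitude or more above WT. The monocyte attractant Ccl7 read 99.8 and 137 in WT and 2674 and 2538 in KO (4.30 ± 0.127), and Ccl2, of the same kind, 921 and 912 in WT and 9373 and 8881 in KO (3.29 ± 0.0632). Ccl3, a macrophage inflammatory protein, read 26.02 and 56.6 in WT and 255 and 325 in KO (2.46 ± 0.259). Of 21 chemokines tested, 12 were called higher and 2 lower, 9 and 1 of them firmly, against 12.4% and 17.5% of all genes. Interferon-induced Cxcl10 (1.24 ± 0.0869) and Cxcl11 (1.79 ± 0.187) were among the firm increases. Cxcl12, a homeostatic chemokine, was the firm decrease, from 450 and 431 to 257 and 192 (-0.94 ± 0.147), a call that ended with the median of its probe sets (adjusted p = 0.38).

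Genes of the NF-kB system were higher in the same arrays: of 15 tested, 13 were called higher and 1 lower, against 12.4% and 17.5% of all genes. Firm calls were 11 and 0, with a median difference of 0.86 (0.98 in the A pair and 0.73 in the B pair). Tnfaip3, a ubiquitin-editing enzyme that shuts the pathway down, read 266 and 268 in WT and 2193 and 2055 in KO (2.92 ± 0.0856, limma adjusted p = 7.4e-08). Nfkbiz, a nuclear member of the inhibitor family, read 217 and 208 in WT and 1345 and 1757 in KO (2.76 ± 0.131). Nfkbia, the main cytoplasmic inhibitor, read 1790 and 1624 in WT and 8774 and 7683 in KO (2.26 ± 0.0838), and its 5 tested probe sets were all called higher. Further genes of this list with smaller differences were Birc3 (1.59 ± 0.274), Nfkbie (1.41 ± 0.198), Nfkbib (0.90 ± 0.118) and Tnip1 (0.86 ± 0.0882). Among the subunits, Rela was higher by 0.55 ± 0.0725 and Nfkb2 by 0.66 ± 0.107.

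Of 26 cytokines, receptors and inflammatory effectors, 17 were called higher and 0 lower, against 12.4% and 17.5% of all genes. Of the 17, 14 were firm, and the list median was 1.27. Several were near the bottom of the range in WT. Members dim in WT could pass the brightness filter only through KO, and members dim in both genotypes were not tested. The direction of the count and the median therefore partly reflect that filter. Il6, a cytokine of the acute phase, read 1.52 and 17.1 in WT and 121 and 196 in KO (2.82 ± 0.337, limma adjusted p = 3e-04). Ptgs2, the inducible prostaglandin synthase, read 1.83 and 4.80 in WT and 98.2 and 138 in KO (2.79 ± 0.242, on 1 of 2 probe sets), and Csf3, the granulocyte growth factor, 4.86 and 14.4 in WT and 104 and 110 in KO (2.29 ± 0.238). Tnf read 8.26 and 31.8 against 161 and 105 (2.10 ± 0.366). Their WT means lay at or near the offset, so the size of these differences depends on it. Brighter members moved the same way: the adhesion receptor Icam1 read 348 and 303 in WT and 985 and 1074 in KO (1.62 ± 0.104), Il1b 132 and 114 against 423 and 375 (1.58 ± 0.141), and the bacterial lipoprotein receptor Tlr2 173 and 175 against 483 and 476 (1.38 ± 0.117). KO and WT arrays did not overlap for any of these genes, as was so for 62.3% of all genes tested.

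Of 28 interferon response genes, 13 were called higher and 1 lower (9 and 0 firmly, median 0.35), against 12.4% and 17.5% of all genes. Ifi202b, an interferon-inducible gene, read 0.547 and 4.03 in WT and 547 and 603 in KO (5.02 ± 0.186, limma adjusted p = 2.8e-07), and with WT values below the offset its size depends on it. Ifi202b passed the brightness filter only through its KO arrays. Ifit3, which limits viral RNA, read 1724 and 1754 in WT and 4002 and 3827 in KO (1.16 ± 0.067), and the transcription factor Irf1 489 and 498 against 1140 and 1042 (1.12 ± 0.107). In antigen presentation by class I molecules, 3 of 15 genes were firmly higher and 1 firmly lower, against 6.04% and 7.12% of all genes. The heavy chain H2-K1 (0.55 ± 0.0933) and its light chain B2m (0.47 ± 0.065) were higher, whereas Psmb10, an immunoproteasome subunit, was lower (-0.71 ± 0.0741).

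Of 23 AP-1 and immediate early factors, 13 were called higher and 0 lower, against 12.4% and 17.5% of all genes. Of the 13, 11 were firm, and the list median was 0.88. Fos read 254 and 252 in WT and 758 and 790 in KO (1.56 ± 0.0964, limma adjusted p = 5.8e-06). Jun, its dimer partner, read 1043 and 1020 against 2384 and 2931 (1.34 ± 0.0974), and Junb 1035 and 1068 against 2446 and 2311 (1.17 ± 0.078). Zfp36, whose product destabilises cytokine mRNAs, read 431 and 402 in WT and 1623 and 1439 in KO (1.84 ± 0.0926). Fosl1, another Fos-family member, read 613 and 644 in WT and 1321 and 1879 in KO (1.30 ± 0.14). The response gene Ier3 (1.55 ± 0.0725) and Maff (1.19 ± 0.153) were also higher. In the integrated stress response, 8 of 23 genes were called higher and 6 lower, against 12.4% and 17.5% of all genes, with a median of 0.13. Ddit4, an inhibitor of mTOR signalling, read 1266 and 1151 in WT and 3768 and 3831 in KO (1.64 ± 0.093), and Atf3, a stress-induced repressor, 550 and 570 against 1790 and 1736 (1.63 ± 0.143). Asparagine synthetase Asns, in contrast, was lower (1395 and 1337 against 835 and 765, -0.76 ± 0.0851), as was the transcription factor Atf5 (-0.89 ± 0.0743).

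Of 27 hypoxia and glycolysis genes, 20 were called higher and 1 lower, against 12.4% and 17.5% of all genes. Firm calls were 17 and 0, with a median of 0.75. Ero1a, an oxidase for disulfide formation, read 1645 and 1736 in WT and 6504 and 6387 in KO (1.92 ± 0.0643, limma adjusted p = 1.4e-07). Pfkfb3, which makes the activator of phosphofructokinase, read 115 and 118 in WT and 452 and 586 in KO (2.01 ± 0.149), and hexokinase Hk2 544 and 541 against 1008 and 929 (0.82 ± 0.0847). The muscle-type pyruvate kinase Pkm read 1243 and 1365 against 2469 and 2125 (0.81 ± 0.0922). Lactate dehydrogenase Ldha was higher by 0.32 ± 0.0543, a call that ended under trimmed-mean scaling (adjusted p = 0.055) and without the intensity trend (adjusted p = 0.051). Gluconeogenesis and glycogen genes were split, 7 called higher and 5 lower of 19, against 12.4% and 17.5% of all genes. Pck1, which commits carbon to glucose, read 125 and 114 in WT and 237 and 350 in KO (1.17 ± 0.197), while G6pc, which releases glucose, was lower (493 and 470 against 216 and 144, -1.37 ± 0.209) and pyruvate carboxylase Pcx as well (-0.58 ± 0.0768). Pcx is also the control transcript whose 3′ to 5′ ratio differed by genotype, and the part of that in its decrease was not tested.

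**Figure D2:**
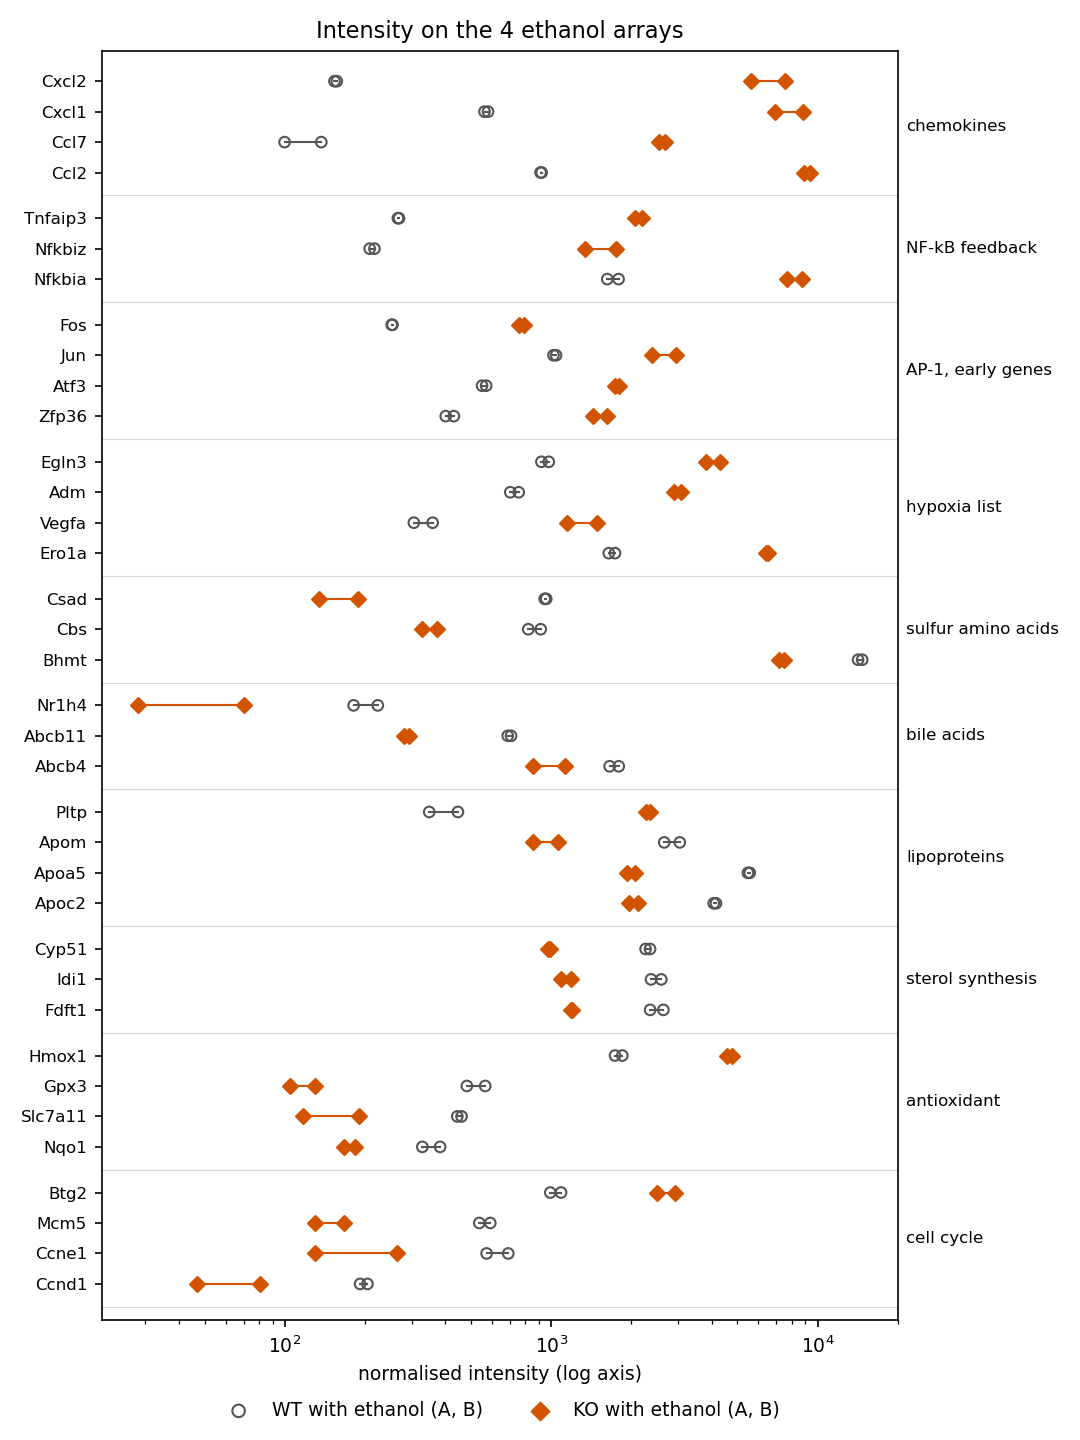
Normalised intensity (log axis) of 36 genes on the 4 ethanol arrays, grouped by role, with open circles for WT A and B, diamonds for KO A and B, and a line joining the arrays of a group. No gene shown has overlapping groups, which holds for 62.3% of all genes tested. The KO diamonds of Nr1h4 (28.1 and 70.3) and Ccne1 (130 and 263) are the widest apart.

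Of 22 methionine and one-carbon genes tested, 5 were called higher and 7 lower, against 12.4% and 17.5% of all genes. Firm calls were 2 and 4, with a median of -0.10, near the -0.08 of all genes. Csad, the decarboxylase that commits cysteine carbon to taurine, read 945 and 958 in WT and 134 and 189 in KO (-2.47 ± 0.144, limma adjusted p = 4.1e-06). Cbs, which starts transsulfuration of homocysteine, read 820 and 913 in WT and 374 and 327 in KO (-1.27 ± 0.12). Bhmt, which returns homocysteine to methionine, read 14190 and 14700 against 7177 and 7488 (-0.98 ± 0.0656), and Nnmt, which spends methyl groups on nicotinamide, 1178 and 1331 against 565 and 561 (-1.13 ± 0.094). The firm increases were Cdo1, the dioxygenase that oxidises cysteine upstream of Csad, with 1381 and 1472 against 2482 and 2238 (0.72 ± 0.0846), and Gamt, which forms creatine, with 718 and 763 against 1386 and 1297 (0.84 ± 0.0979). Amino acid catabolism and the urea cycle were likewise split, with 6 of 26 called higher and 8 lower, against 12.4% and 17.5% of all genes. The aspartate aminotransferase Got1 was higher (984 and 1161 against 2975 and 2517, 1.34 ± 0.107). Glycine decarboxylase Gldc (-1.04 ± 0.124) and the urea cycle enzyme Cps1 (5539 and 5562 against 3549 and 3540, -0.64 ± 0.0637) were lower.

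Of 28 bile acid genes, 10 were called lower and 4 higher, against 17.5% and 12.4% of all genes. Firm calls were 6 lower and 1 higher, with a median of -0.21. Nr1h4, the bile acid receptor FXR, read 181 and 223 in WT and 28.1 and 70.3 in KO (-1.82 ± 0.311, limma adjusted p = 0.0023). Cyp39a1, which hydroxylates oxysterols, read 205 and 268 in WT and 17.4 and 40.9 in KO (-2.52 ± 0.272). The canalicular pumps for bile salts and phospholipid were both lower: Abcb11 read 687 and 707 against 292 and 281 (-1.24 ± 0.103), and Abcb4 1793 and 1657 against 1126 and 853 (-0.80 ± 0.133). Uptake carrier Slc10a1 was lower by -0.59 ± 0.103. Akr1d1, which reduces the steroid ring, was the firm increase (1.17 ± 0.155). Of 23 liver-enriched transcription factors, 2 were called higher and 7 lower, against 12.4% and 17.5% of all genes. Hnf4a, a master regulator of the hepatocyte program, read 1592 and 1650 in WT and 820 and 704 in KO on its brightest probe set (-1.08 ± 0.0983). Its dimmest tested probe set was called the other way (0.97 ± 0.24), and the median of its probe sets ended the call (adjusted p = 0.077).

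Of 22 apolipoprotein and lipoprotein genes, 8 were called lower and 3 higher, against 17.5% and 12.4% of all genes, with 7 and 3 firm. Apom, a lipid carrier of high-density lipoprotein, read 2657 and 3039 in WT and 856 and 1064 in KO (-1.56 ± 0.14, limma adjusted p = 5.4e-05). Apoa5, which promotes triglyceride clearance, read 5562 and 5476 against 1922 and 2066 (-1.46 ± 0.0719), and the lipase cofactor Apoc2 4075 and 4155 against 2110 and 1966 (-1.01 ± 0.0688). Pltp, which moves phospholipid between lipoproteins, went the other way, from 447 and 349 in WT to 2352 and 2266 in KO (2.50 ± 0.129). Mttp, which loads lipid onto apolipoprotein B, was higher by 0.47 ± 0.0772. Among 20 lipid droplet genes, 8 were called higher and 3 lower, against 12.4% and 17.5% of all genes. Cidea, a droplet fusion protein, read 144 and 181 in WT and 1793 and 1863 in KO (3.38 ± 0.188), Hilpda, an inhibitor of triglyceride lipase, 486 and 462 against 1728 and 1959 (1.92 ± 0.0875), and Fitm1 186 and 171 against 890 and 633 (1.98 ± 0.16). Plin5, which links droplets to mitochondria, was lower (187 and 159 against 57.4 and 85.5, -1.13 ± 0.219).

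Of 21 sterol genes, 7 were called higher and 8 lower, against 12.4% and 17.5% of all genes, with a median of -0.01. The firm decreases included the lanosterol demethylase Cyp51 (2350 and 2261 against 993 and 974, -1.22 ± 0.0711, limma adjusted p = 4.1e-06), the isomerase Idi1 (2590 and 2370 against 1085 and 1190, -1.11 ± 0.0792) and the squalene synthase Fdft1 (2352 and 2637 against 1189 and 1197, -1.05 ± 0.0891). The firm increases were Stard4, a sterol carrier (228 and 248 against 519 and 538, 1.10 ± 0.109), Tm7sf2 (0.62), Sc5d (0.51) and Msmo1 (0.34), of which the last 3 encode enzymes late in the pathway. The Fdft1 call ended with the median of its probe sets (adjusted p = 0.72), although the 2 bright enough to test were both called lower. Of 25 lipogenesis genes, 12 were called higher and 6 lower, against 12.4% and 17.5% of all genes. Firm calls were 11 and 4, with a median of 0.37. Fatty acid synthase Fasn read 1465 and 1467 in WT and 2451 and 2686 in KO (0.80 ± 0.0764), and malic enzyme Me1 1992 and 1993 against 4203 and 3887 (1.02 ± 0.0712). Fatty acid oxidation genes and PPARα targets were split, 9 called higher and 6 lower of 28, against 12.4% and 17.5% of all genes. Ppara itself was lower (161 and 157 against 47.4 and 60.6, -1.33 ± 0.208), and so was the ω-hydroxylase Cyp4a14 (5758 and 5929 against 1218 and 1399, -2.15 ± 0.0903). The peroxisomal enzyme Ehhadh (1.24 ± 0.0887), the fatty acid transporter Cd36 (1.71 ± 0.167) and Cyp4a12a (625 and 646 against 3192 and 3156, 2.29 ± 0.0712) were higher.

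Of 25 genes on a list of NRF2 targets and antioxidant enzymes, 12 were called lower and 1 higher, against 17.5% and 12.4% of all genes. Firm calls were 8 and 1, with a median of -0.22. Gpx3, the secreted glutathione peroxidase, read 565 and 483 in WT and 130 and 104 in KO (-2.02 ± 0.16, limma adjusted p = 2.5e-05). Slc7a11, the cystine importer, read 461 and 444 against 117 and 190 (-1.499 ± 0.189), and the quinone reductase Nqo1 328 and 383 against 167 and 183 (-0.96 ± 0.135). Glutathione synthesis genes Gss (-0.69 ± 0.0917) and Gclm (-0.50 ± 0.0941) were also lower. The increase was Hmox1, which degrades heme, with 1849 and 1737 in WT and 4574 and 4752 in KO (1.37 ± 0.0772). Conjugation enzymes leaned upward, 12 called higher and 2 lower of 27, against 12.4% and 17.5% of all genes. Gstm6 (1.20 ± 0.098) and Ugt3a2 (1.29 ± 0.106) were among the 12. Of 18 alcohol and aldehyde genes, 3 were called higher and 2 lower, against 12.4% and 17.5% of all genes. Cyp2e1, which oxidises ethanol, read 9614 and 9512 in WT and 13710 and 16210 in KO (0.64 ± 0.0818, adjusted p = 0.00045). Among 19 iron genes, the exporter Slc40a1 was lower (1702 and 1695 against 432 and 824, -1.48 ± 0.227), and its KO arrays were far apart.

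Of 35 cell cycle and DNA replication genes, 15 were called lower and 5 higher, against 17.5% and 12.4% of all genes, with 8 and 5 firm. Their median of -0.50 moved to -0.17 under trimmed-mean scaling. Mcm5, a subunit of the replicative helicase, read 537 and 591 in WT and 130 and 167 in KO (-1.83 ± 0.147, limma adjusted p = 2.9e-05). The cyclins Ccne1 (572 and 690 against 130 and 263, -1.68 ± 0.263) and Ccnd1 (204 and 192 against 80.9 and 46.9, -1.45 ± 0.262) were lower, and so was the ribonucleotide reductase subunit Rrm2 (-0.95 ± 0.132). Among the firm increases, the antiproliferative gene Btg2 read 992 and 1089 against 2910 and 2489 (1.36 ± 0.0942), Gadd45b 502 and 688 against 1841 and 1560 (1.503 ± 0.158), and the kinase inhibitor Cdkn1a 2354 and 2462 against 3835 and 3878 (0.68 ± 0.0725). Of 31 proteasome subunits, 18 were called lower and 1 higher, by amounts below 2-fold (median -0.35), against 17.5% and 12.4% of all genes. Firm calls were 10 lower and 1 higher. The exception was Psmd8 (0.47 ± 0.0714). Of 37 respiratory chain subunits, 9 were called lower and 1 higher, against 17.5% and 12.4% of all genes. Firm calls were 3 lower and 0 higher, against 7.12% and 6.04%. Of 24 keratin and epithelial junction genes, 8 were called lower and 3 higher, against 17.5% and 12.4% of all genes. E-cadherin, Cdh1, read 4059 and 2958 in WT and 1128 and 1781 in KO (-1.28 ± 0.202), plakoglobin Jup was lower by -0.70 ± 0.123, and the claudins Cldn14 (1.27 ± 0.171) and Cldn2 (0.93 ± 0.0978) were higher.

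**Figure D3:**
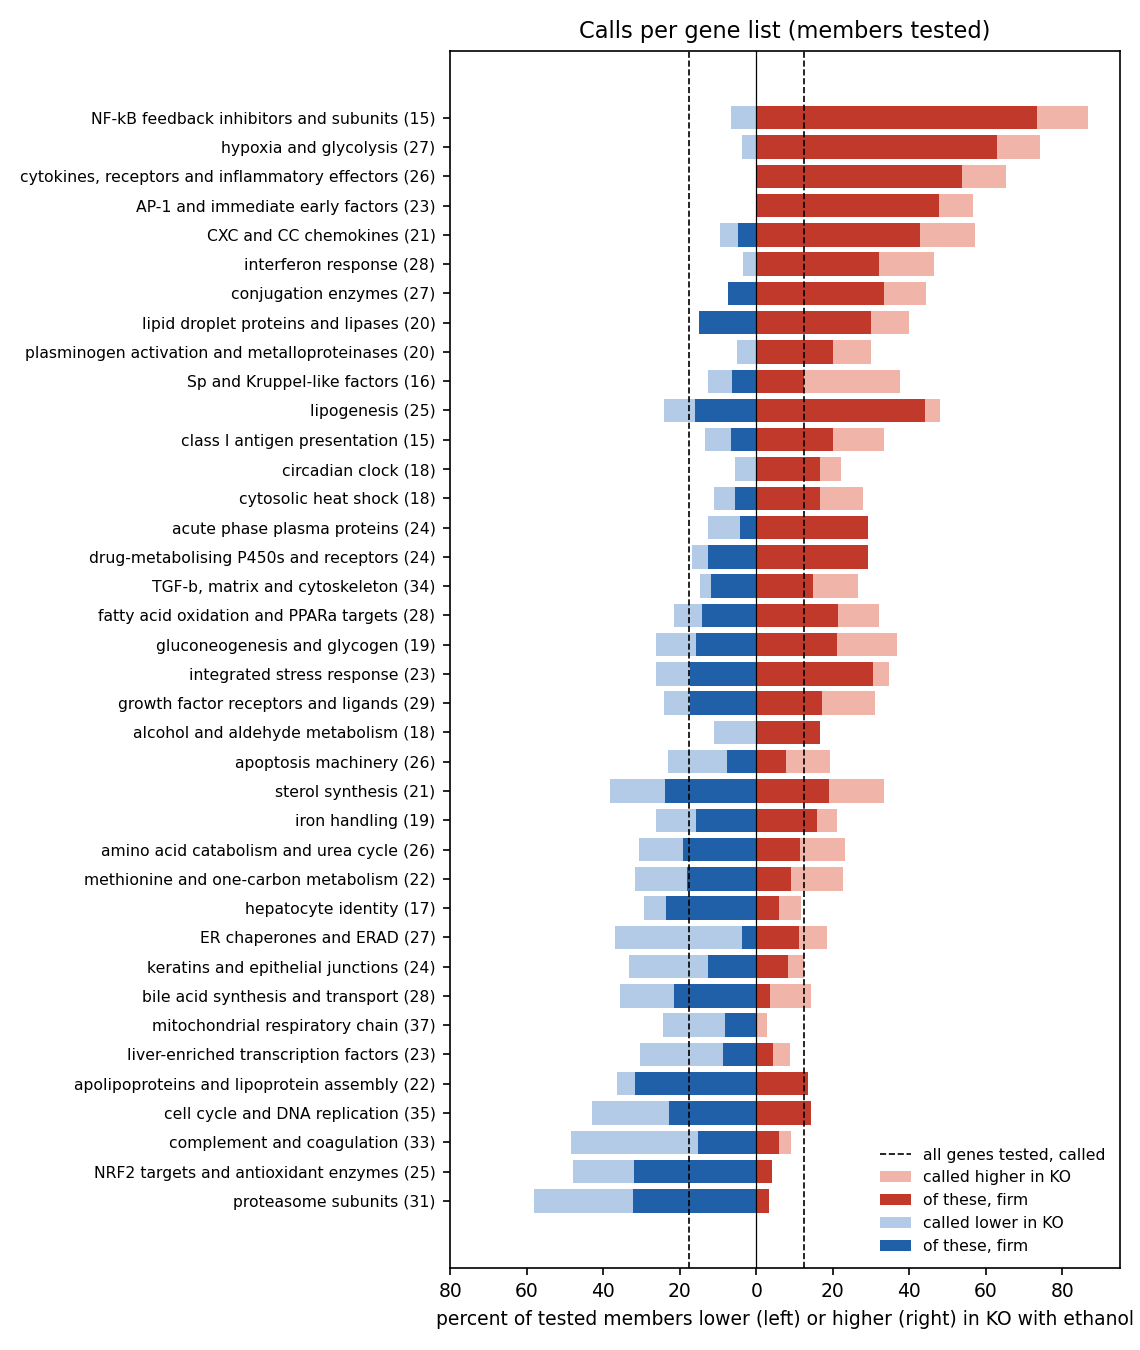
Percent of tested members called lower (left, blue) or higher (right, red) in KO with ethanol, for 38 gene lists with at least 15 tested members, the number tested in brackets and firm calls in the darker shade. Dashed lines mark the share of all genes tested, 17.5% lower and 12.4% higher, and the NF-kB list reaches furthest to the right with 13 of 15 members higher.

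Of 24 acute phase plasma protein genes, 7 were called higher, all firmly, and 3 lower, against 12.4% and 17.5% of all genes. The other 14 were not called, and the median was 0.10. Orm2, an acid glycoprotein, read 1014 and 998 in WT and 2663 and 4082 in KO (1.70 ± 0.164, limma adjusted p = 8.3e-05), and C-reactive protein Crp 2978 and 2496 against 5448 and 6145 (1.08 ± 0.0954). Apcs, serum amyloid P, was the firm decrease (2578 and 2765 against 1563 and 1532, -0.78 ± 0.0715). Of 33 complement and coagulation genes, 16 were called lower and 3 higher, against 17.5% and 12.4% of all genes, with 5 and 2 firm. Mbl1, a lectin that activates complement, read 937 and 1035 in WT and 407 and 491 in KO (-1.11 ± 0.122), and Serpinf2, the plasmin inhibitor, 3835 and 3739 against 2286 and 2190 (-0.76 ± 0.0951). Coagulation factor F5 was higher (622 and 664 against 1140 and 995, 0.71 ± 0.0995).

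The largest decreases outside these lists were those of Spsb4, Mapk13 and Tcf24. Spsb4, an adaptor of a ubiquitin ligase, read 609 and 595 in WT and 11.9 and 56.7 in KO (-3.78 ± 0.364, limma adjusted p = 8.2e-05). Mapk13, a stress-activated kinase, read 183 and 160 in WT and 4.85 and 5.83 in KO (-3.13 ± 0.253), and Tcf24 331 and 296 against 15.99 and 45.6 (-2.89 ± 0.28). S100a6, a calcium-binding protein, read 778 and 714 in WT and 124 and 147 in KO (-2.33 ± 0.119). Zfp593 was lower on 1 of 2 probe sets (1347 and 1383 against 165 and 181, -2.87 ± 0.108). Tcea3, a transcription elongation factor, read 523 and 646 against 110 and 98.0 (-2.32 ± 0.198). Epdr1 (-2.60 ± 0.247), Smpdl3b (-2.59 ± 0.331), Wtip (-2.49 ± 0.325), the lymphocyte cathepsin Ctsw (-2.48 ± 0.269), the channel protein Panx1 (-2.38 ± 0.435) and the adaptor protein Sfn (-2.29 ± 0.38), were the other large decreases. Where KO means lay below the offset of 16, as for Mapk13, the size depends on it. On the upper side, the RNA-binding protein gene Rbm45 read 102 and 61.9 in WT and 805 and 1001 in KO (3.25 ± 0.268). Serpina7, thyroxine-binding globulin, read 115 and 122 against 942 and 1027 (2.89 ± 0.169). Mup10 (2.90 ± 0.177), a major urinary protein whose paralogs are near-identical and may share probes, Gm7969 (2.95 ± 0.346) and the niacin receptor Hcar2 (2.83 ± 0.342) completed this group.

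Markers of other liver cells were examined by list. Of 14 tested macrophage markers, 1 was firmly higher and 1 was called lower, against 6.04% and 17.5% of all genes. Cd68, a lysosomal protein, read 536 and 570 in WT and 1859 and 1633 in KO (1.63 ± 0.0968, limma adjusted p = 4.3e-06). Kupffer cell markers Clec4f (83.7 and 64.4 against 81.7 and 72.4) and Adgre1 (127 and 99.4 against 110 and 88.0) were not called, and Marco was called lower but not firmly (-1.27 ± 0.293). The summed macrophage list was 1642 and 1649 in WT and 2986 and 2626 in KO, and the difference of Cd68 alone was as large as that of the sum. Neutrophil markers had 3 of 10 usable members bright enough to test and 0 called, where 29.9% of all genes were called. Their sums were 325 and 254 in WT against 469 and 301 in KO. Of 2 tested lymphocyte markers, Ighm was higher (177 and 141 against 849 and 434) and Cd8a was not called. Stellate and fibroblast markers Dcn (1.34 ± 0.245) and Ecm1 (1.05 ± 0.133) were firmly higher among 8 tested, against 6.04% of all genes. The list sums were 883 and 622 in WT against 1448 and 1046 in KO. Endothelial markers had 1 of 11 called, Pecam1, not firmly, against 29.9% of all genes. Of 3 tested cholangiocyte markers, Sox9 was higher (232 and 287 against 785 and 686), Cldn4 was called lower but not firmly (1483 and 1376 against 1236 and 1086), and Epcam was not called. The part of these markers in the other results was not tested.

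Most of these differences were also present without ethanol. In untreated cells 3881 genes (36.1%) were called, and 2013 genes were called in the same direction in both comparisons, 62.7% of the ethanol calls and 51.9% of the untreated ones. Another 59 were called in opposite directions. The comparisons share no arrays. The Pcx 3′ to 5′ ratio, which differed by genotype with ethanol, was 10.02 and 16.8 in untreated WT and 10.6 and 8.69 in untreated KO. Its part in the changes below was not tested. Untreated WT A also differed from untreated KO A in the ratio of the control transcripts bioC to bioB (0.993 and 2.98). Cxcl2 differed by 5.54 without and 5.26 with ethanol, Nfkbia by 2.62 and 2.26, Csad by -1.88 and -2.47, Apom by -1.11 and -1.56, and Cyp39a1 by -2.26 and -2.52. A further 1139 genes were called with ethanol and not without it, but for only 116 of them was the change in genotype difference itself called.

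The change in the genotype difference (ethanol minus untreated) was called for 539 genes (5.02%), 345 upward and 194 downward, and 365 of these gaps narrowed with ethanol. This count is unstable: 62 genes were called with each of the 8 arrays left out, and limma without an intensity trend called 19. Without ethanol KO A 579 were called, and without ethanol KO B 2405. Under all of up to 12 alternatives that gave a value and all 8 omissions, 9 genes were called. They were picked out after their values were seen. Ivl read 1101 and 1093 without and 128 and 115 with ethanol in WT, against 3016 and 2767 and then 1080 and 1230 in KO (change in difference 1.70 ± 0.142, adjusted p = 0.0014). Cyp26a1, which breaks down retinoic acid, had the same form, from 922 and 940 to 162 and 192 in WT and from 1558 and 1492 to 946 and 839 in KO (1.53 ± 0.152). Ctse, an aspartic protease, went from 62.6 and 77.1 to 1.10 and 4 in WT and from 148 and 143 to 217 and 236 in KO (2.79 ± 0.307, on the brighter of 2 probe sets). With ethanol WT values below the offset, the size of the Ctse change depends on it. In these genes the ethanol WT arrays were the lowest of the study.

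For Osgin1, Id1, Erdr1, Slc25a10 and Ddost, the KO arrays differed more between treatments than the WT arrays. Osgin1, an NRF2-linked growth inhibitor, read 5269 and 5240, then 6849 and 6313, in WT and 1304 and 1391, then 4255 and 3786, in KO (1.24 ± 0.112, limma adjusted p = 0.0014). Its deficit in KO narrowed from -1.95 to -0.71. Id1, a target of bone morphogenetic protein signalling, read 410 and 393, then 930 and 989, in KO, and its deficit narrowed from -2.45 to -1.33. Erdr1 read 1309 and 1284, then 3220 and 2884, in KO and 628 and 550, then 430 and 475, in WT (1.59 ± 0.141). Slc25a10, the mitochondrial dicarboxylate carrier, was lower in untreated KO (-0.83) and higher in ethanol KO (0.56 ± 0.0966), a reversal with both values called. Ddost, a subunit of the oligosaccharyl transferase, was lower untreated (-0.96) and was not called with ethanol (0.21 ± 0.0866, adjusted p = 0.11). Sephs2, which supplies selenium for selenoproteins, was the single gene of the 9 with a downward change (-1.44 ± 0.131). It read 1547 and 1761, then 2741 and 2991, in WT and 2205 and 2087, then 1294 and 1440, in KO, and 1 of its 3 tested probe sets was called the other way in the ethanol comparison.

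**Figure D4:**
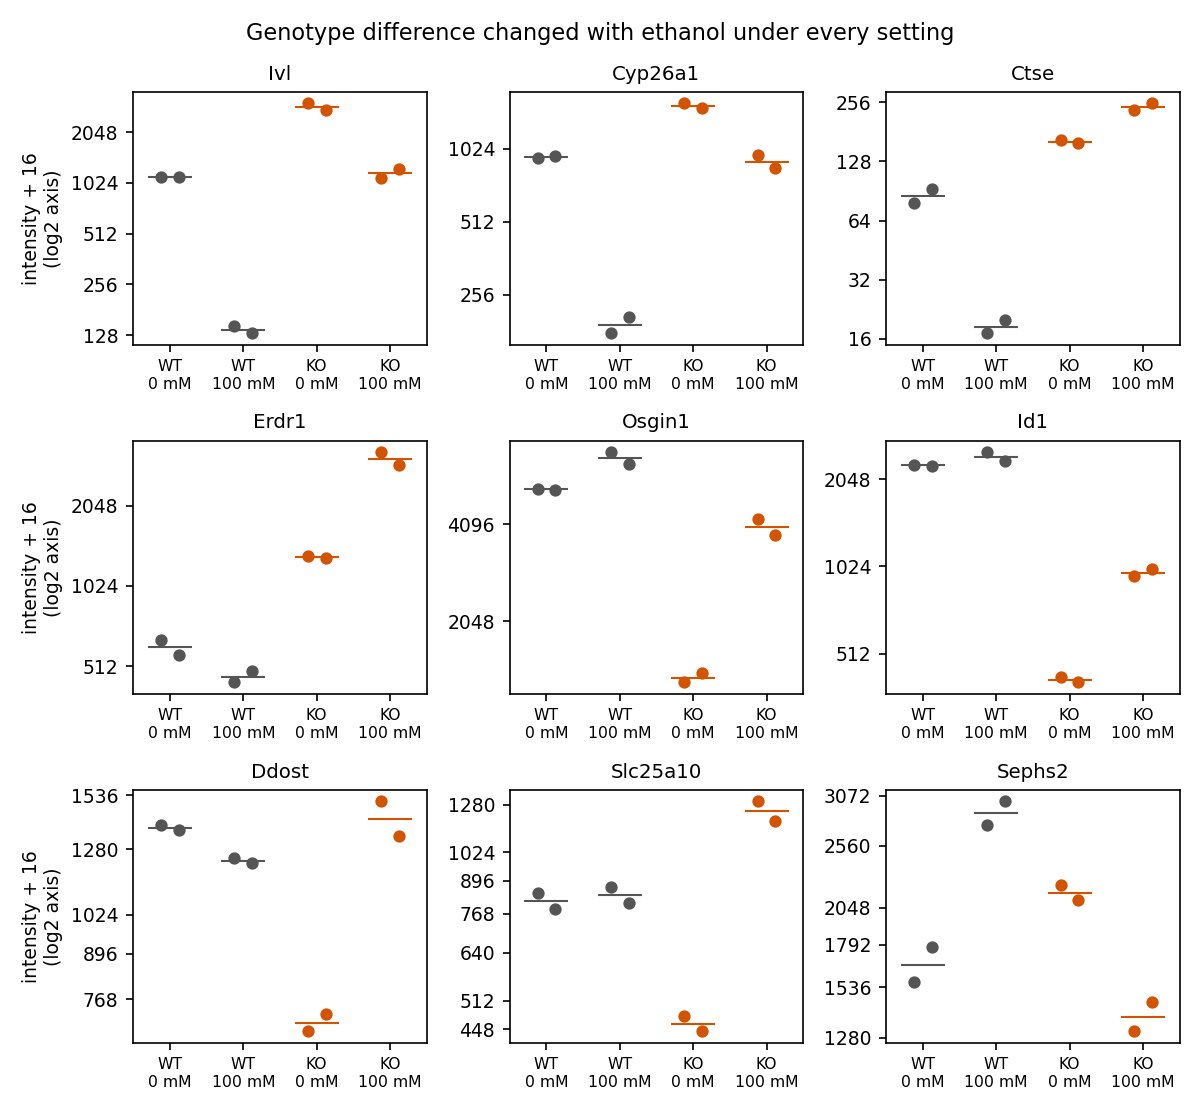
Intensity + 16 (log2 axis) of the 9 genes on all 8 arrays, with WT in grey and KO in orange, 1 point per array and a line at the mean of the log2 values. Ivl, Cyp26a1 and Ctse were lowest on the 2 ethanol WT arrays, whereas Osgin1, Id1, Ddost and Slc25a10 were lowest on the 2 untreated KO arrays.

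Of 26 cytokines, receptors and effectors, the change in genotype difference was called upward for 2 and downward for 6, and of 21 chemokines for 0 and 3, against 3.21% and 1.81% of all genes. The upward changes were those of the prostaglandin synthase Ptges (0.98) and the receptor Tnfrsf1a (0.75). Il23a, a cytokine subunit, differed by 5.61 without and 3.33 with ethanol (change -2.28 ± 0.398, limma adjusted p = 0.014). Its KO arrays read 1023 and 1010, then 412 and 438, and its WT arrays 10.3 and 1.10, then 17.5 and 41.7. Both genotypes thus entered the change, and with WT values near or below the offset of 16 its size depends on it. Cxcl3 read 1610 and 1529, then 128 and 271, in KO (change -2.10 ± 0.428, adjusted p = 0.025). Vcam1, an adhesion receptor, read 1088 and 905, then 261 and 352 (change -1.73 ± 0.251, adjusted p = 0.0069). Nos2, the inducible nitric oxide synthase, changed by -1.87 ± 0.422 (adjusted p = 0.036) and Icam1 by -0.83 ± 0.148 (adjusted p = 0.015). WT Nos2 read 2.75 and 2.28, then 4.13 and 1.73, below the offset, so the size of its change depends on it. Without the intensity trend, adjusted p was 0.086 for Il23a, 0.11 for Cxcl3, 0.056 for Vcam1, 0.064 for Nos2 and 0.087 for Icam1. Leaving out 1 array also ended calls: untreated KO A for Vcam1, either untreated KO array for Il23a, and most arrays for Cxcl3, Icam1 and Nos2. Among all genes tested, 3.21% had an upward and 1.81% a downward change. Upward changes numbered 5 of 25 lipogenesis genes, 7 of 22 methionine and one-carbon genes, 5 of 22 apolipoprotein and lipoprotein genes and 4 of 26 amino acid catabolism genes, with 0 downward in each list. Fasn read 1432 and 1372 in untreated KO and 2451 and 2686 with ethanol, while WT read 1675 and 1737, then 1465 and 1467 (change 1.08 ± 0.108, adjusted p = 0.0018, and 0.051 without the trend). Angptl8, a feeding-induced regulator of lipoprotein lipase, read 896 and 1229, then 3090 and 2731, in KO (change 1.43 ± 0.213, adjusted p = 0.0075, and 0.083 without the trend).

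**Figure D5:**
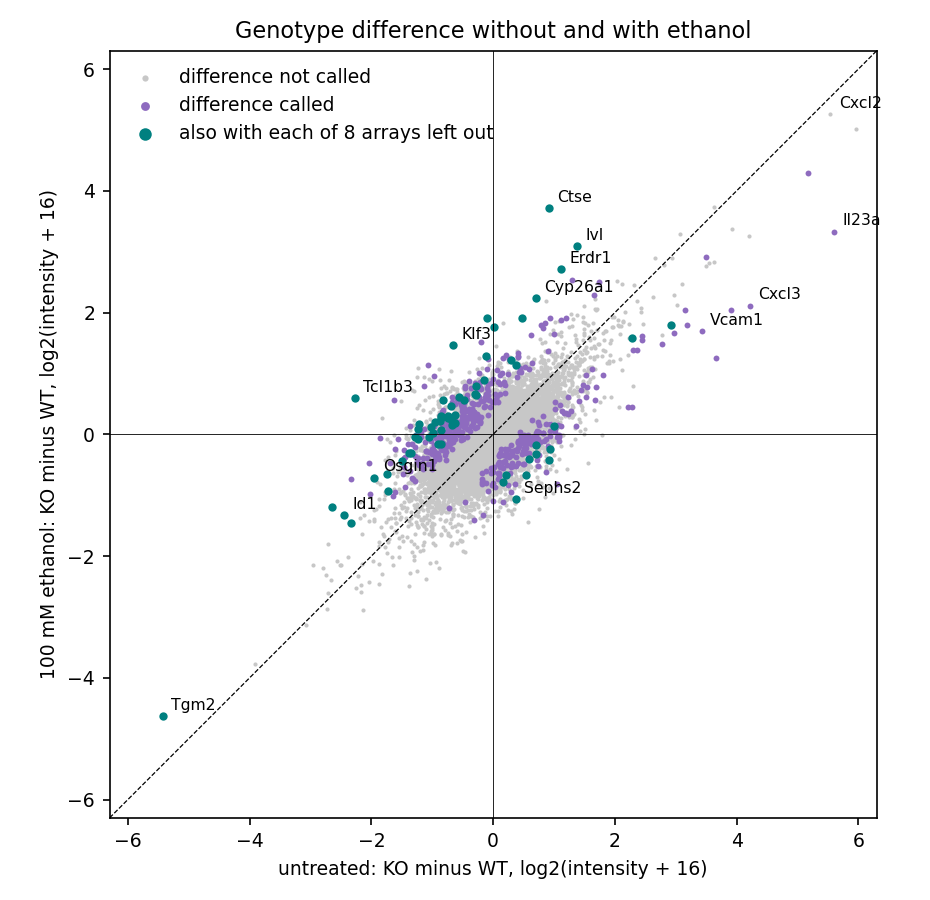
KO minus WT without ethanol (horizontal) and with 100 mM ethanol (vertical), log2(intensity + 16), 1 point per gene for 10741 genes, with the dashed line where both are equal. Purple points are among the 539 genes whose change was called and green points are the 62 also called with each array left out; Ctse and Ivl lie above the line and Il23a and Cxcl3 below it.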

How the data were processed

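Total RNA from 8 hepatocyte samples was hybridised to 1-colour Affymetrix arrays, per the labels. The deposited table gives a linear intensity per probe set, and neither the labels nor the file names the authors' software, scaling or background method. Of 45101 deposited probe sets, 64 controls were left out, as were 5410 with an unusable value (0 or at most 0.001) on ethanol WT B. Intensities were quantile normalised, 16 was added, and log2 values were fitted with limma 3.58.1 (R 4.3.3): 4 group means, intensity trend, 2 arrays per group, Benjamini-Hochberg over the 19814 probe sets in the brightest 50%. The brightest probe set stood for a gene; 34945 probe sets had 1 symbol, 932 several and 9160 none. The number of arrays limits the precision. The script was tested on simulated data.

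Genes named were the 15 highest and 15 lowest firm differences with a mean of at least 100 in the higher group, up to 5 called members of each list with the smallest adjusted p or members whose role the text needs, the 5 highest and 5 lowest changes of the genotype difference, and Tgm2, Sp1, Met and Egfr. The members and lists were chosen with earlier results of these data known. Array letters are not stated to pair samples. Alternatives covered offset, filter, scaling, trend, arrays in the fit, weights, block, an inferred batch, incomplete probe sets, probe set summary and left-out arrays. The labels give no batch: arrays were split where the ratio of the control transcripts bioC to bioB lay below 2. It was 0.937 (WT) and 1.06 (KO) on the ethanol A arrays and 2.59 and 3.00 on the B arrays. Untreated WT A had 0.993, against 2.71 for untreated WT B and 2.98 and 3.14 for untreated KO. With this batch as a term, 3660 genes were called with ethanol and the change in difference for 523.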

Additional observations from a re-analysis of the deposited data

Results flagged for a closer look

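For 10 genes the change in the genotype difference between untreated and ethanol-exposed cells was called by limma and was among the 5 largest in its direction. Upward changes were 2.86 for Tcl1b3, 2.79 for Ctse, 2.19 for E2f5, 2.12 for Klf3 and 2.02 for Cnnm4. Tcl1b3 was lower in untreated KO (-2.27) and was not called with ethanol (0.59, adjusted p = 0.11), and its change lost the call without the intensity trend (adjusted p = 0.062). E2f5 lost the call in 6 of 8 fits that left out 1 array. Klf3 and Cnnm4 lost it when the median of all probe sets stood for the gene, and Klf3 also when incomplete probe sets were kept.

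Downward changes were -2.40 for Serpinb2, -2.28 for Il23a, -2.10 for Cxcl3, -1.87 for Irak1 and -1.87 for Nos2. All 5 lost the call without the intensity trend. The sizes for Serpinb2, Il23a and Nos2 depend on the offset, as their WT values lay near or below it. Serpinb2 and Irak1 each lost it in 6 of 8 fits that left out 1 array, and Nos2 in 7. No explanation for these changes was tested.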

How the results depend on the processing

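The call for 1115 genes held under all 13 alternatives and 8 omissions that gave a value. Keeping incomplete probe sets gave 1119 genes lower in place of 1883. The count of 634 genes at 2-fold became 348 with an offset of 64, 386 with the brightest 30% of probe sets and 1013 without both B ethanol arrays. The change in genotype difference, called for 539 genes, was called for 321 without a filter, 19 without the intensity trend and 1752 without both B ethanol arrays. Leaving out 1 array gave 1767 to 4097 genes called, 814 to 1633 higher, 931 to 2464 lower and 542 to 1123 at 2-fold. The lowest counts came without ethanol WT A (1871 called) or WT B (1767), and 1123 without ethanol KO B. For the change in difference the range was 76 to 2405: 124 and 146 without untreated WT A and B, 76 and 107 without untreated KO A and B, 140 and 134 without ethanol WT A and B, and 2405 without ethanol KO B. Taking the median of a gene's probe sets reversed Met (0.494), Itgb1 (-0.0701) and Gpam (0.157). The cause was not tested.

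With the letter as a replicate block, 3418 genes were called (1393 higher, 2025 lower, 669 at 2-fold) and the change in difference for 640. Deviations of same-letter arrays correlated at 0.204 with ethanol and 0.0218 without. Of 200 genes examined singly, 18 lost a call under some setting without a change of sign, and 3 changed sign. These genes were largely named for their calls, so the share says little of the 3211 calls, of which 1115 held throughout.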

Other observations

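Genes that neighbour Tgm2 in RefSeq order were called, both directions together, at shares near those of all genes, with more lower than higher. Among the 20 genes within 10 places on either side, 0 were called higher and 5 lower (25%), by limma. Of all genes tested, 12.4% were called higher and 17.5% lower, 29.9% together. Within 50 places, 28 of 100 tested genes were called (28%), 9 higher and 19 lower.

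Genes whose every probe set had an unusable value on ethanol WT B were left out of the report's counts. Of 877 such genes, 313 were bright enough to test in the limma fit that kept incomplete probe sets, and 5 were called higher and 16 lower.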
